A study of Mus musculus with 12 samples.

Results

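Glutathione S-transferases are enzymes that join the tripeptide glutathione to reactive, electrophilic molecules. The 9 genes described here are Gsta3, Gsta4, Gstm1, Gstp1, Gsto1, Gstt1, Gstt2, Mgst1 and Mgst3, taken by symbol from the 54532 Ensembl genes of the count table. All 9 were found, and all 9 passed the filter on low counts that left 15338 genes for testing. They were measured by bulk RNA sequencing in mouse BMDMs, macrophages that are differentiated in vitro from bone marrow cells. The series has 12 libraries in 4 groups of 3: R150X cells given oxidised low-density lipoprotein (OxLDL), WT cells given OxLDL, untreated R150X cells and untreated WT cells. R150X cells came from GpnmbR150X mice, which carry the R150X allele of Gpnmb, which encodes a membrane glycoprotein of macrophages, and WT cells came from control mice. All 4 groups had the same strain label, DBA/2 crossed with C57BL/6 and backcrossed to C57BL/6. The labels gave no age, OxLDL dose or duration, and did not say whether the 3 libraries of a group came from separate mice or cultures, so every p-value measures only the spread between these libraries, which may be technical.

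The family has soluble and membrane-bound branches. The soluble alpha class includes enzymes that act on products of lipid peroxidation, Gsta4 having the toxic aldehyde 4-hydroxynonenal as its preferred substrate and mouse Gsta3 being known for detoxifying the epoxide of aflatoxin. The mu, pi and theta classes (Gstm1, Gstp1, and Gstt1 with Gstt2) conjugate a broad range of electrophiles, and the omega enzyme Gsto1 removes glutathione from proteins and reduces dehydroascorbate. Mgst1 and Mgst3 are integral membrane proteins that also reduce lipid hydroperoxides. Many of these genes are induced by the transcription factor NRF2, which binds antioxidant response elements, and oxidised lipoprotein carries lipid peroxides and aldehydes of the kind these enzymes act on.

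The libraries held 14838969 to 18222868 counts in all, and 3 counts corresponded to 0.158 to 0.209 CPM, the count scaled to library size. Gpnmb, the gene with the R150X allele, differed by -4.15 (log2, SE 0.0427) with OxLDL and by -3.79 (SE 0.0421) without, R150X over WT, with an interaction of -0.36. Xist was at 228 to 349 CPM in R150X libraries and at 0 to 2.75 CPM in WT libraries, and the Y-linked gene Ddx3y at 51.3 to 60.1 CPM in R150X and 83.6 to 100 CPM in WT libraries, so that the allele and the sex make-up of the cultures cannot be told apart in any comparison of genotypes. Replicate 1 of the untreated R150X group stood apart from replicates 2 and 3 with chi-square values of 9.23 and 10.1 for each degree of freedom over genes, where the other replicate pairs had 2.31 to 4.76. Macrophage markers summed to 19502 to 20882 CPM in R150X with OxLDL, 23149 to 24765 CPM in WT with OxLDL, 21218 to 22150 CPM in untreated R150X and 19453 to 19756 CPM in untreated WT libraries. In bulk samples, fewer cells of a type and less RNA per cell cannot be told apart.

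The promoter windows of Gsta3, Mgst1 and Gstm1 are shown because Gsta3 and Mgst1 were the members whose OxLDL response was called different between genotypes, and Gstm1 was the most abundant member. Each runs from 250 bases before to 50 bases after a RefSeq start on GRCm38.p6, 5′ to 3′ along the gene's strand. Capitals mark matches to TGACNNNGC, the core of the antioxidant response element, searched on both strands. No other motif was searched.
Gsta3: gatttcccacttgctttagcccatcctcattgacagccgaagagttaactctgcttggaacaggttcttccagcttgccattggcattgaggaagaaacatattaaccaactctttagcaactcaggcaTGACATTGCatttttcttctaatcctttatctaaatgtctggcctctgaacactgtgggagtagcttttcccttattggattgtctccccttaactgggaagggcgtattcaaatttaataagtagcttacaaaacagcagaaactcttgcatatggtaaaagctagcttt
Mgst1: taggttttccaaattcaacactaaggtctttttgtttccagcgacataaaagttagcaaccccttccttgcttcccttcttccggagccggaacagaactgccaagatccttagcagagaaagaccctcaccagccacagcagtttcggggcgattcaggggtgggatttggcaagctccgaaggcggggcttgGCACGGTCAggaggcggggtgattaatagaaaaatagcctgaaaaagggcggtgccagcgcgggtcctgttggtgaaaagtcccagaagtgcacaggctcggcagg
Gstm1: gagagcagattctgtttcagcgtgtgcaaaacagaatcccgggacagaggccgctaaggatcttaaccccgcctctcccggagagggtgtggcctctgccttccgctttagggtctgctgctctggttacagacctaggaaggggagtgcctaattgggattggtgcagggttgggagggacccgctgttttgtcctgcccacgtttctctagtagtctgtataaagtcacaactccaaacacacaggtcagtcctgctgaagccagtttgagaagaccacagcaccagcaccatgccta
The Gsta3 window is chr1:21240335-21240634 (plus strand), the Mgst1 window chr6:138140277-138140576 (plus strand) and the Gstm1 window chr3:108017769-108018068 (minus strand). In Gsta3 the match was TGACATTGC, whose first base lies at -121 from the start. In Mgst1 it was GCACGGTCA, the motif read on the opposite strand, with its first base at -56. The RefSeq table gave 9 windows for 7 members, Gstm1 and Mgst1 having a second start, and 2 windows (22.2%) held the motif. Of all 32851 windows of the same length, 12.4% held it. A match describes letters in the window, and none was found in the other 7 windows, which belong to Gstm1, Gstp1, Gsto1, Gstt1, Mgst3 and the second Mgst1 start. Forms that depart from TGACNNNGC were not searched, so a window without a match may still hold such an element.

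Levels of different members can be compared only per exon length. In CPM per kilobase of exon, Gstm1 was the highest member in all 4 groups, at 199 ± 8.59 in R150X with OxLDL, 175 ± 3.61 in WT with OxLDL, 74.5 ± 1.51 in untreated R150X and 60.3 ± 2.05 in untreated WT cells (SD, n = 3 each). Mgst1 came second, at 72.1 ± 3.64 in R150X with OxLDL, 81.9 ± 4.25 in WT with OxLDL, 48.3 ± 0.647 in untreated R150X and 37.6 ± 0.749 in untreated WT cells. Gsto1, Gstp1 and Mgst3 followed in that order, except in untreated WT cells, where Gstp1 at 23.7 ± 3.91 and Gsto1 at 21.7 ± 0.871 changed places with overlapping libraries. Gstt1 was sixth in every group, at 3.76 to 6.08, and Gsta4, Gsta3 and Gstt2 held the last places at 0.328 to 2.24. In untreated R150X cells the libraries of Gstt2 (0.723) overlapped those of Gsta4 (0.595), which overlapped those of Gsta3 (0.546). The 6 highest members kept places 1 to 6 in R150X with OxLDL and in both untreated groups when the length of the longest coding transcript was used instead, and in WT with OxLDL Gsta3 then stood above Gstt1. The summed CPM of the 9 genes was 599 to 613 in R150X and 566 to 612 in WT libraries with OxLDL, and 317 to 349 in R150X and 260 to 275 in WT libraries without. Gstm1 supplied 46.6% to 49.5% of it in R150X and 43.1% to 44.8% in WT libraries with OxLDL, and 32.2% to 34.2% in untreated R150X and 32.8% to 33.5% in untreated WT libraries. These are shares of CPM not divided by exon length, so they do not compare the members' levels.

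**Figure D1:**
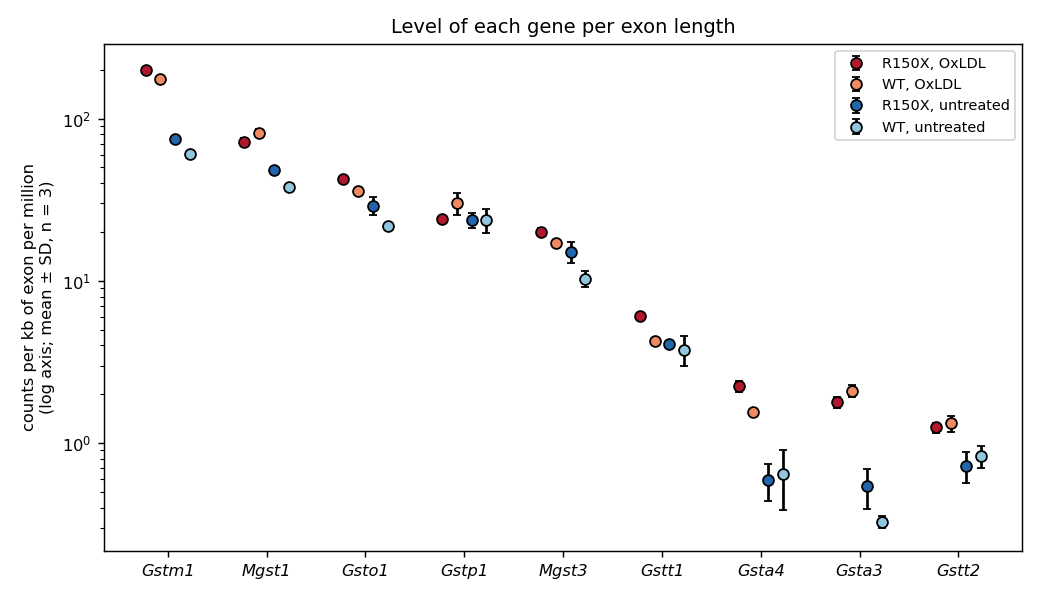
Level of each member as CPM per kilobase of exon (log axis), with the mean and SD of 3 libraries in each of the 4 groups. Gstm1 and Mgst1 lead in every group, and the lowest 3 members, Gsta4, Gsta3 and Gstt2, lie between 0.328 and 2.24.

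The comparison of OxLDL-treated with untreated cells asked how the genes responded to the lipoprotein load used in this study of foam cells. The treated and untreated libraries carry separate ranges of sample numbers. Any difference in processing that follows these ranges cannot be told apart from the treatment. In R150X cells 8 of 9 members rose and 0 fell, where 39.0% of all genes tested were called, 18.4% higher and 20.6% lower. In WT cells 8 of 9 rose and 0 fell, where 45.8% of all genes were called, 22.7% higher and 23.1% lower. None was lower at an unadjusted p under 0.05 or with DESeq2 in either genotype. The member outside the count was Gstp1 in R150X and Gstt1 in WT. The members' median log2 fold change was 0.58 in R150X and 0.74 in WT, beside 0.0039 and 0.014 over all genes tested. Calls are those of edgeR's quasi-likelihood test at 0.05 after Benjamini-Hochberg adjustment over every gene tested. Under scaling by library size alone, which shifted the median gene by -0.11 in WT and lowered the share of calls that were higher to 31.6% from 49.6%, 7 members still rose in WT, Gstp1 being lost at 0.23 (adjusted p = 0.0825).

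Of the alpha class, Gsta3 (ENSMUSG00000025934, chromosome 1 from 21240589 to 21265661, plus strand, GRCm38) had the steepest response in WT. It stood at 7.72, 7.21 and 8.46 CPM in R150X with OxLDL, against 2.53, 2.93 and 1.65 CPM in untreated R150X libraries. In WT it stood at 10.1, 8.58 and 8.76 CPM with OxLDL, against 1.40, 1.32 and 1.56 CPM without. No treated library overlapped an untreated one in either genotype, though the share of all genes tested without overlap was not counted here or below. The log2 fold change of Gsta3 was 1.72 in R150X (SE 0.173, adjusted p = 5.33e-08) and 2.68 in WT (SE 0.184, adjusted p = 8.66e-11). Gsta4 (ENSMUSG00000032348, chromosome 9 from 78182774 to 78209349, plus strand), the 4-hydroxynonenal enzyme, was the lowest member by CPM. It was at 3.07, 2.80 and 2.62 CPM with OxLDL against 0.533, 0.902 and 0.824 CPM without in R150X, and at 2.01, 2.04 and 1.88 CPM with OxLDL against 0.754, 0.527 and 1.18 CPM without in WT. These levels rest on 27 to 49 counts per treated library and 8 to 22 per untreated one. The groups again did not overlap, and the log2 fold changes were 1.88 in R150X (SE 0.288, adjusted p = 1.87e-05) and 1.26 in WT (SE 0.296, adjusted p = 0.00143).

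Gstm1 (ENSMUSG00000058135, chromosome 3 from 108012255 to 108017973, minus strand), the mu class member, gave the most precise change. It measured 297, 279 and 304 CPM in R150X with OxLDL, against 112, 108 and 108 CPM in untreated R150X. WT cells had 264, 256 and 254 CPM with OxLDL, against 91.2, 85.4 and 89.8 CPM without. Every treated library exceeded every untreated one by more than 2-fold, and the log2 fold changes were 1.42 in R150X (SE 0.0490, adjusted p = 8.23e-16) and 1.54 in WT (SE 0.0495, adjusted p = 2.44e-16). Of the 50-base stretches in Gstm1 transcripts, 18.9% also occur in other genes, among them the pseudogene Gstm2-ps1 and Gstm3, so part of its count could be assigned elsewhere. Gstm3 itself held 0 to 2 counts per library.

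Gstp1 (ENSMUSG00000060803, chromosome 19 from 4035407 to 4037985, minus strand), the pi class enzyme, was the only member not called in R150X. It was at 37.5, 37.2 and 36.9 CPM in R150X with OxLDL, against 39.3, 32.2 and 38.5 CPM in untreated R150X, and the groups overlapped. The log2 fold change was 0.024 (95% interval -0.20 to 0.25, adjusted p = 0.884). WT cells had 54.5, 43.2 and 41.5 CPM with OxLDL, against 43.4, 34.8 and 31.8 CPM without. These groups overlapped too, and the rise of 0.34 (SE 0.106, adjusted p = 0.0116) rested on single libraries: it was 0.21 without replicate 1 of the OxLDL-treated WT group (adjusted p = 0.126), 0.31 without untreated WT replicate 2 (adjusted p = 0.0512) and 0.25 without untreated WT replicate 3 (adjusted p = 0.081). Gstp1 shares 33.7% of its 50-base stretches with Gstp2 and a pseudogene, which makes its count uncertain. Gstp2 had 0 to 4 counts per library.

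Gsto1 (ENSMUSG00000025068, chromosome 19 from 47854970 to 47864790, plus strand), the omega class thiol transferase, measured 85.2, 83.9 and 87.8 CPM with OxLDL against 67.3, 53.7 and 55.2 CPM without in R150X. In WT it measured 74.9, 72.3 and 71.3 CPM with OxLDL against 42.3, 43.6 and 45.8 CPM without. It rose by 0.55 in R150X (SE 0.0686, adjusted p = 1.28e-06) and by 0.73 in WT (SE 0.0705, adjusted p = 2.11e-08), with no overlap in either. The theta genes lie near each other on the minus strand of chromosome 10, Gstt1 (ENSMUSG00000001663) from 75783813 to 75798584 and Gstt2 (ENSMUSG00000033318) from 75831114 to 75837424. Gstt1 was at 9.66, 9.27 and 8.95 CPM with OxLDL against 6.13, 6.20 and 6.43 CPM without in R150X, without overlap (0.57, SE 0.132, adjusted p = 0.00159). In WT it was at 6.64, 6.40 and 6.54 CPM with OxLDL against 5.77, 4.54 and 6.92 CPM without, with overlap and no call (0.19, 95% interval -0.11 to 0.48, adjusted p = 0.298). Gstt2, which also acts on sulfate esters, was at 5.02, 5.61 and 4.93 CPM with OxLDL against 3.47, 2.25 and 3.30 CPM without in R150X, and at 6.14, 4.97 and 5.35 CPM with OxLDL against 2.96, 4.01 and 3.38 CPM without in WT. It rose by 0.79 in R150X (SE 0.178, adjusted p = 0.00118) and by 0.67 in WT (SE 0.173, adjusted p = 0.00319), again without overlap.

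Of the membrane-bound enzymes, Mgst1 (ENSMUSG00000008540, chromosome 6 from 138140316 to 138156755, plus strand) measured 147, 151 and 137 CPM in R150X with OxLDL, against 98.0, 95.8 and 98.1 CPM in untreated R150X. WT cells had 174, 163 and 158 CPM with OxLDL, against 74.4, 75.4 and 77.3 CPM without. The groups did not overlap, and the rise was 0.58 in R150X (SE 0.0528, adjusted p = 1.16e-08) and 1.12 in WT (SE 0.0534, adjusted p = 1.83e-13). Mgst1 lies 89.1 Mb from Gpnmb on the same chromosome. Mgst3 (ENSMUSG00000026688, chromosome 1 from 167371966 to 167393841, minus strand) had 20.6, 22.4 and 22.9 CPM with OxLDL against 19.2, 14.5 and 16.1 CPM without in R150X, and 19.4, 18.1 and 19.1 CPM with OxLDL against 12.8, 10.4 and 10.7 CPM without in WT. The groups did not overlap. It rose by 0.41 in R150X (SE 0.102, adjusted p = 0.00296) and by 0.74 in WT (SE 0.108, adjusted p = 8.52e-06).

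**Figure D2:**
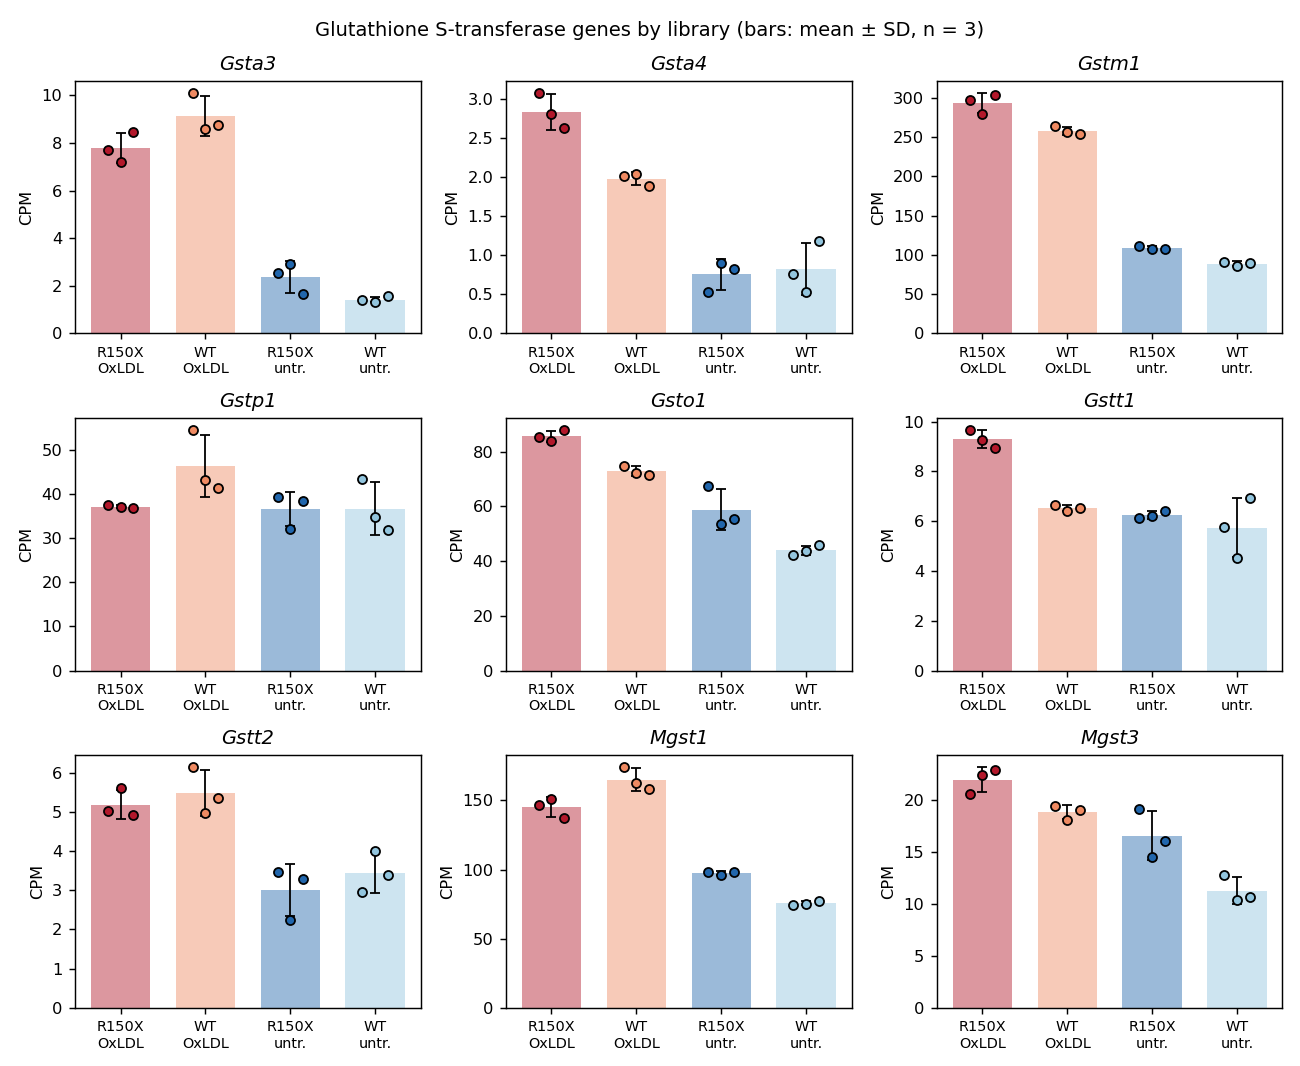
CPM of each member in every library, with points for libraries and bars for the mean ± SD of 3, each panel on its own axis from 0 (untr., untreated). The treated groups stand above the untreated ones in both genotypes for Gsta3, Gsta4, Gstm1, Gsto1, Gstt2, Mgst1 and Mgst3. Libraries overlap for Gstp1 in both genotypes and for Gstt1 in WT.

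Genes listed as markers of other cells moved with the treatment. Of all genes tested, 18.4% were called higher and 20.6% lower in R150X, and 22.7% higher and 23.1% lower in WT. Neutrophil markers summed to 42.7 to 44.5 CPM in R150X with OxLDL, against 285 to 310 CPM in untreated R150X, and to 135 to 156 CPM in WT with OxLDL, against 560 to 591 CPM in untreated WT. None of the 12 was at 0 in a whole group, and of the 10 tested 8 fell in R150X and 7 in WT, where 2 rose (1 without WT with OxLDL replicate 1). Stromal markers summed to 6645 to 7056 CPM with OxLDL against 10954 to 11014 CPM without in R150X, and to 7326 to 8096 CPM with OxLDL against 16291 to 16486 CPM without in WT, and 9 of 12 fell in each genotype. Both sums were lower in treated than in untreated cells of the same genotype. Adipocyte markers summed to 194 to 221 CPM with OxLDL against 106 to 116 CPM without in R150X, and to 157 to 175 CPM with OxLDL against 67.7 to 76.6 CPM without in WT, Lep being at 0 in all 4 groups. Of 4 tested, 4 rose in R150X and 3 in WT, with a median log2 fold change of 3.43 in R150X and 1.64 in WT. The sums rose by less than these medians, so listed genes that changed less weigh most in them. The list was Adipoq, Plin1, Cfd, Car3, Cidec, Retn, Lep and Fabp4, and its sum was not taken as a measure of adipocyte content. Of 8 macrophage markers, 3 rose and 5 fell in R150X, and 3 rose and 3 fell in WT. The part of these cells in the members' changes was not tested.

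The comparison of untreated genotypes showed that 5 of 9 members rose in R150X and 0 fell, where 33.0% of all genes tested were called, 18.1% higher and 14.8% lower. None was lower at an unadjusted p under 0.05 or with DESeq2. Library-size scaling kept the members' count at 5, although it lowered the share of all calls that were higher to 36.1% from 55.0%. The median of the members was 0.30, beside 0.01 over all genes. For Gstm1 the log2 fold change was 0.30, with SE 0.0498 and adjusted p = 8.22e-05, from the untreated values above, in which every R150X library exceeded every WT library. Mgst1 was at 0.36 (SE 0.0539, adjusted p = 2.92e-05), Gsto1 at 0.42 (SE 0.0709, adjusted p = 0.000126) and Mgst3 at 0.55 (SE 0.108, adjusted p = 0.000571), likewise without overlap. Replicate 1 of the untreated R150X group held the highest Gsto1 and Mgst3 values of the untreated libraries, and without it they were at 0.30 (adjusted p = 0.000222) and 0.43 (adjusted p = 0.00439). Gsta3 averaged 2.37 ± 0.657 CPM in R150X and 1.43 ± 0.121 CPM in WT (SD, n = 3 each). Its rise of 0.72 (SE 0.221, adjusted p = 0.0157) was lost without untreated R150X replicate 2 (0.53, adjusted p = 0.102), without untreated WT replicate 2 (0.67, adjusted p = 0.0565) and when only these 6 libraries were fitted (0.71, adjusted p = 0.0611). Gstp1 (-0.0031, 95% interval -0.23 to 0.22), Gstt1 (0.12, -0.16 to 0.41), Gstt2 (-0.21, -0.59 to 0.18) and Gsta4 (-0.10, -0.81 to 0.60) overlapped between genotypes and were not called. Of the markers tested, 4 of 8 for macrophages were called higher and 1 lower in untreated R150X cells, neutrophil markers fell in 10 of 10, stromal markers rose in 1 of 12 and fell in 10, and adipocyte markers rose in 4 of 4, and their part in these differences was not tested.

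With OxLDL the members called between genotypes went both ways. In R150X 3 of 9 rose and 1 fell, where 13.0% of all genes tested were called, 6.1% higher and 6.92% lower, and the median was 0.19 beside 0.002 over all genes. Gstt1 was at 0.51 (SE 0.134, adjusted p = 0.0131), averaging 9.29 ± 0.357 CPM in R150X and 6.52 ± 0.122 CPM in WT (SD, n = 3 each). Gstm1 was at 0.19 (SE 0.0473, adjusted p = 0.00993) with 293 ± 12.7 CPM in R150X and 258 ± 5.32 CPM in WT, and Gsto1 at 0.23 (SE 0.068, adjusted p = 0.0252) with 85.6 ± 2.02 CPM in R150X and 72.8 ± 1.86 CPM in WT. Mgst1 fell by 0.18 (SE 0.0519, adjusted p = 0.0203), with 145 ± 7.33 CPM in R150X and 165 ± 8.56 CPM in WT. All 4 calls could be lost by leaving out 1 library. Without R150X replicate 3 Gstm1 had an adjusted p = 0.0616, Gsto1 0.0923 and Mgst1 0.123, and 1 member rose. Without WT replicate 2 Gsto1 had an adjusted p = 0.0857 and Gstt1 0.0509, and again 1 member rose. The Mgst1 call was lost too when WT replicate 1 was left out (adjusted p = 0.132), and that of Gsto1 without R150X replicate 1 (adjusted p = 0.0574) or 2 (adjusted p = 0.0546) or WT replicate 3 (adjusted p = 0.0783).

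The other 5 members were not called between genotypes under OxLDL. Gstp1 was at -0.32 (95% interval -0.54 to -0.10, adjusted p = 0.0518), with every R150X library below every WT library. Without WT replicate 1 of this treatment, its highest library, it was at -0.19 (adjusted p = 0.335). It was called with DESeq2 (adjusted p = 0.0369), when low counts were not filtered (0.000704), with replicate as a block (0.0165), in a fit of these 6 libraries alone (adjusted p = 0.0103) and without WT replicate 3 of this treatment (adjusted p = 0.0293). Leaving out untreated R150X replicate 1 or 2 or untreated WT replicate 1 or 3 also gave a call (adjusted p = 0.0267, 0.0389, 0.0273 and 0.041). Gsta3 was at -0.23 (-0.54 to 0.072), Gsta4 at 0.52 (-0.011 to 1.04), Mgst3 at 0.22 (0.0081 to 0.43) and Gstt2 at -0.083 (-0.43 to 0.26). Of these, only Gstt2 overlapped between genotypes, and the share of all genes tested without overlap was not counted. Without that WT replicate 1, Gsta3 was at -0.15. In this comparison 6.1% of all genes tested were called higher and 6.92% lower. Neutrophil markers fell in 10 of 10 cases, macrophage markers in 5 of 8 and stromal markers in 3 of 12, while 1 stromal marker and 3 of 4 adipocyte markers rose. Their part in these differences was not tested.

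**Figure D3:**
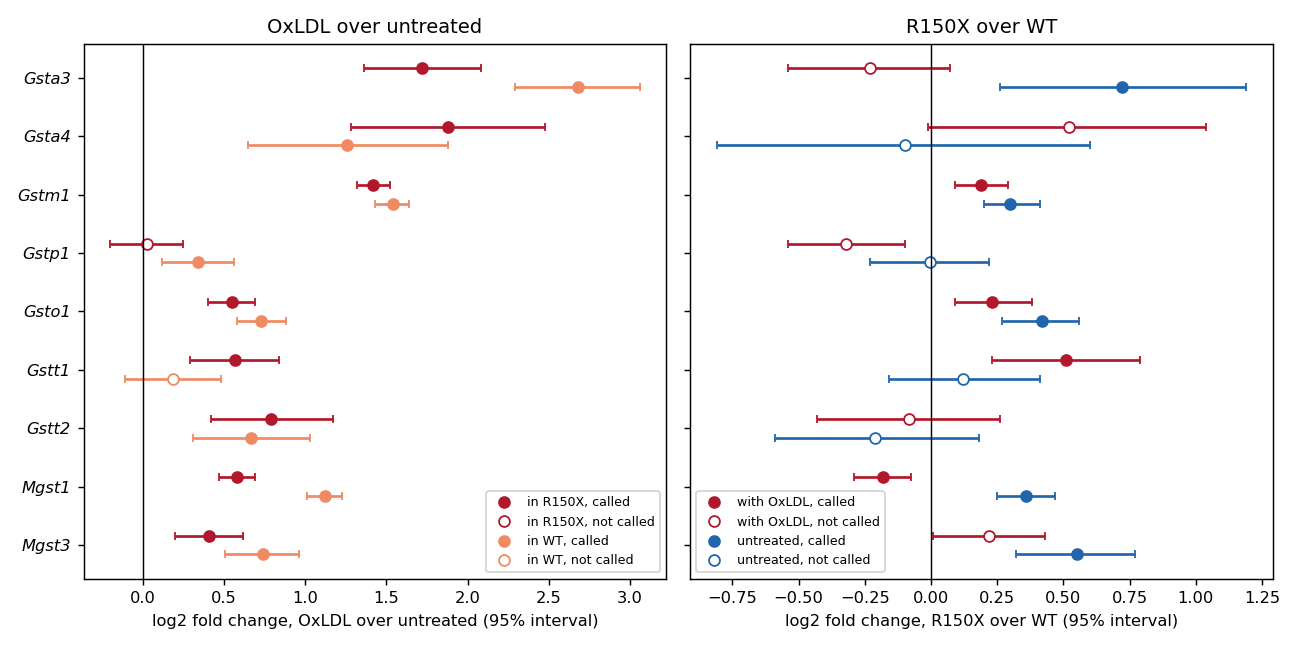
Log2 fold change and 95% interval of each member for OxLDL over untreated cells in each genotype (left) and for R150X over WT with and without OxLDL (right), filled where the adjusted p was under 0.05. Mgst1 lies on opposite sides of 0 in the right panel, at -0.18 with OxLDL and 0.36 without.

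The interaction, the log2 response to OxLDL of R150X cells less that of WT cells, asked whether the genotypes responded differently. It was negative and called for 2 of 9 members and positive and called for 0, where 8.32% of all genes tested were called, 5.19% lower and 3.13% higher. None was higher at an unadjusted p under 0.05 or with DESeq2, and 4 were lower at that p. Library-size scaling also called 2 members lower, although it raised the share of all interaction calls that were higher to 66.5% from 37.6%. Mgst1 had the clearest difference, -0.55 (SE 0.0748, adjusted p = 6.15e-05), its response being 1.49-fold in R150X and 2.18-fold in WT. Its call held in all 17 alternatives, which gave -0.58 to -0.45 (adjusted p = 6.15e-09 to 0.000485). Its level was above WT in untreated R150X cells and below WT in R150X cells with OxLDL. Gsta3 was at -0.96 (SE 0.265, adjusted p = 0.0279), its response being 3.29-fold in R150X and 6.40-fold in WT. This call was lost without replicate 2 of R150X with OxLDL (-0.90, adjusted p = 0.0629), WT with OxLDL replicate 1 (-0.88, adjusted p = 0.0711), untreated R150X replicate 1 (-0.90, adjusted p = 0.054) or 2 (-0.76, adjusted p = 0.096), or untreated WT replicate 1 (-0.95, adjusted p = 0.0634) or 2 (-0.90, adjusted p = 0.078), each of which left 1 member called. The remaining differences were not called: Gstm1 -0.12 (95% interval -0.26 to 0.026), Gsto1 -0.18 (-0.39 to 0.022), Gstp1 -0.32 (-0.63 to -0.0032), Mgst3 -0.33 (-0.64 to -0.017), Gsta4 0.62 (-0.26 to 1.5), Gstt1 0.38 (-0.017 to 0.78) and Gstt2 0.12 (-0.39 to 0.64). Without untreated R150X replicate 1, the library that stood apart, Gsto1 was at -0.07 and Mgst3 at -0.21. Gstp1 was at -0.18 without WT with OxLDL replicate 1, and Gsta4 at 0.27 and Gstt1 at 0.23 without untreated WT replicate 3. Library-size scaling put Gstm1 at -0.025 and Gsto1 at -0.091, and Gstt2 ran from -0.052 to 0.24 over the alternatives. Gstt1 was called in R150X and not in WT, and Gstp1 in WT and not in R150X, but neither difference between genotypes passed the test. Of the cell markers, 7 of 8 macrophage markers, 6 of 10 neutrophil markers and 1 of 4 adipocyte markers tested were called lower in the interaction and 8 of 12 stromal markers higher, with 1 stromal marker lower (0 without any 1 of 10 libraries, all but untreated R150X replicate 3 and untreated WT replicate 1, with DESeq2 or its size factors, with no filter and under library-size scaling), and their part in the members' differences was not tested.

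**Figure D4:**
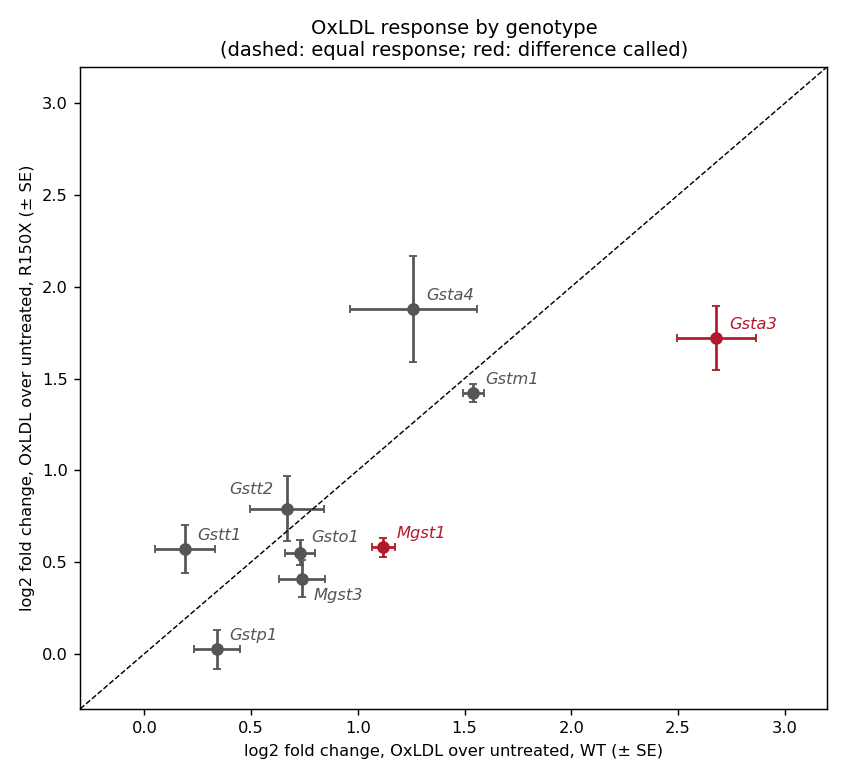
Log2 fold change with OxLDL in R150X (vertical) against that in WT (horizontal) for the 9 members, with SE bars, a dashed line of equal response and red for a called difference. Mgst1 and Gsta3 lie below the line by 0.55 and 0.96.

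Genes around the transferases were followed in 8 lists, which were drawn up with earlier results of these data known. With OxLDL, 18.4% of all genes tested were called higher and 20.6% lower in R150X, and 22.7% and 23.1% in WT. Between untreated genotypes the shares were 18.1% higher and 14.8% lower, and between treated ones 6.1% and 6.92%. In the interaction they were 3.13% higher and 5.19% lower. A list count near these shares is not a result about that list. Among 14 tested other genes of the wider transferase family and its relatives, 4 rose and 2 fell with OxLDL in R150X (1 fell without OxLDL-treated R150X replicate 1 or 2 or untreated R150X replicate 1), and 5 rose and 3 fell in WT. Hpgds, the haematopoietic prostaglandin D synthase of the sigma class, had the highest mean CPM, not divided by exon length. It rose by 0.38 in R150X and 0.45 in WT. Alox5ap, the 5-lipoxygenase activating protein related to the membrane-bound enzymes, rose by 0.40 in R150X and 1.08 in WT. Prostaglandin E synthase (Ptges) fell by 1.40 in R150X and 1.26 in WT. Between untreated genotypes 1 rose (2 without R150X replicate 1 or with the replicate block), Alox5ap at 0.45, and 2 fell (1 without R150X replicate 2 or 3 or WT replicate 1 or 3), among them Gstcd at -0.41. With OxLDL 0 rose and 1 fell in R150X (2 without untreated R150X replicate 1, 2 or 3, with DESeq2, with no filter and with the replicate block), Mgst2 at -0.81. In the interaction 1 was called lower, Alox5ap at -0.68, with 2 called lower without R150X replicate 3 of the treated or replicate 1 of the untreated group, and 0 were called higher (1 under library-size scaling). Alox5ap and Gstcd overlap genes on the opposite strand, and reads of the pair cannot be told apart without strand.

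Glutathione is made in the steps before the transferases. Of 9 tested genes of synthesis and precursor supply, 3 rose and 4 fell with OxLDL in R150X, and 3 rose and 5 fell in WT. Gclm, the modifier subunit of the rate-limiting ligase, rose by 0.67 in R150X and 1.09 in WT, the amino acid transporter Slc1a4 fell by 0.81 in R150X and 1.12 in WT, and Slc3a2, the heavy chain of the cystine transporter, rose by 0.25 in R150X and 0.23 in WT. Between untreated genotypes 5 rose and 3 fell, and with OxLDL 3 rose and 0 fell (1 fell without WT replicate 3 or untreated R150X replicate 2 or with the replicate block, and 2 without untreated R150X replicate 1), with the cystine transporter Slc7a11 at 0.51. In the interaction 2 were called lower, Gclm at -0.41 and glutathione synthetase (Gss) at -0.46, and leaving out any of 8 libraries left 1, all but R150X with OxLDL replicates 1 and 3, WT with OxLDL replicate 2 and untreated R150X replicate 2 having that effect. Library-size scaling left 1 lower and called 2 higher.

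Of 16 tested genes of glutathione-dependent reduction and detoxification, 2 rose and 4 fell with OxLDL in R150X (1 rose without treated replicate 2 and 4 without untreated replicate 1). In WT 9 rose and 2 fell (1 fell without treated replicate 1 or 3 or untreated replicate 1 or 2 or with DESeq2, and 4 fell under library-size scaling). The glutaredoxin Glrx fell by 1.48 in R150X and 1.51 in WT, glutathione reductase (Gsr) fell by 0.43 in R150X, and the hydrolase Esd rose by 0.59 in WT. Between untreated genotypes 10 rose and 0 fell (1 fell without R150X replicate 1, WT with OxLDL replicate 3 or under library-size scaling), with the lipid hydroperoxide peroxidase Gpx4 and Esd both at 0.51. In the interaction 4 were called lower, Gsr at -0.70, Gpx4 at -0.53 and Esd at -0.49 among them, and 0 higher (1 without R150X with OxLDL replicate 3, with DESeq2, with no filter, with the replicate block and under library-size scaling). With OxLDL, Gpx3 at 0.38 rose in R150X and Gsr at -0.41 fell, the only 2 genes of the list called there, where 2 rose without R150X replicate 3 and 2 fell without WT replicate 3 or untreated R150X replicate 1.

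Conjugates leave the cell through exporters and are trimmed outside it. Of 12 tested genes of glutathione breakdown and the mercapturate path, 5 rose and 1 fell with OxLDL in R150X, the fall being lost without any 1 of the treated R150X libraries or untreated R150X replicate 1 or 3, with DESeq2 and with no filter, and 2 falling without untreated R150X replicate 2 and under library-size scaling, and 5 rose and 2 fell in WT. The aminopeptidase Anpep rose by 0.84 in R150X and 1.08 in WT. The dipeptidase Dpep1 rose by 1.16 in R150X and 0.86 in WT, and the transpeptidase Ggt5 by 0.92 in R150X and 0.95 in WT. Between untreated genotypes 5 rose and 2 fell (1 fell without R150X replicate 1 or WT replicate 2 or 3 or with DESeq2), Anpep at 0.78 and Cndp2 at 0.45 being among the 5, and with OxLDL 4 rose and 0 fell, with Dpep1 at 0.90 and Anpep at 0.54. In the interaction 2 were called lower, Cndp2 at -0.40 and Anpep at -0.24, and 0 higher (1 without R150X with OxLDL replicate 1 or untreated R150X replicate 3 or with no filter). Library-size scaling called 1 lower and 1 higher there. Of 6 tested exporters, 2 rose and 3 fell with OxLDL in R150X and 2 rose and 2 fell in WT. Abcc3 rose by 0.69 in R150X and 0.72 in WT, Abcc4 fell by 0.61 in R150X and 0.63 in WT, and Abcc1, a glutathione conjugate pump, rose by 0.15 in R150X (adjusted p = 0.0491) and 0.21 in WT. In R150X 1 exporter rose when any of 10 libraries was left out, all but untreated R150X replicates 2 and 3, no filter also gave 1 in R150X, and library-size scaling gave 1 in each genotype. Between genotypes 1 exporter was called, Abcc3 at -0.35 with OxLDL and -0.32 without, where 2 fell in untreated cells without R150X replicate 2, with the size factors of DESeq2, with the replicate block or under library-size scaling, and 1 rose without R150X replicate 1. None was called in the interaction by edgeR or DESeq2, and 0 had an unadjusted p under 0.05.

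Of 11 tested NRF2 and AHR regulators, 1 rose and 4 fell with OxLDL in R150X (0 rose without treated replicate 2 or 3 or untreated replicate 2 or 3, with no filter or under library-size scaling, and 2 fell without treated replicate 1 or untreated replicate 2), and 3 rose and 3 fell in WT (0 rose under library-size scaling). Nfe2l2, which encodes NRF2, fell by 0.28 in R150X with OxLDL, was higher in untreated R150X than in untreated WT by 0.28, and had an interaction of -0.43. The aryl hydrocarbon receptor gene Ahr fell by 0.44 in R150X and 0.64 in WT with OxLDL, and stood at -0.36 with OxLDL and -0.56 without, R150X over WT. The related factor Nfe2l1 had the highest mean CPM of the list, not divided by exon length, and was called in the interaction at 0.29. Between untreated genotypes 2 regulators rose (1 without R150X replicate 1 or 2 or WT replicate 1 or 3, with no filter or under library-size scaling) and 1 fell (3 under library-size scaling), and with OxLDL 1 rose and 2 fell (1 fell without R150X replicate 2 or 3 or WT replicate 1 or with no filter, and 0 without WT replicate 2).

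Of 21 NRF2 marker genes outside glutathione metabolism, 9 rose and 5 fell with OxLDL in R150X, and 16 rose and 2 fell in WT. Sulfiredoxin (Srxn1) rose by 0.54 in R150X and 1.05 in WT, and the pentose phosphate enzyme Taldo1 by 0.50 in R150X and 1.09 in WT. Between untreated genotypes 17 rose and 1 fell, and in the interaction 15 were called lower and 0 higher (1 higher without WT with OxLDL replicate 1 or untreated WT replicate 3, with no filter, with the replicate block and under library-size scaling), Prdx1 at -0.71 and Taldo1 at -0.59. With OxLDL 3 rose and 1 fell in R150X (3 fell without untreated R150X replicate 1), among them Akr1a1 at 0.17 and Hmox1 at -0.22. Of 10 genes that handle aldehydes and lipid peroxides, 4 rose with OxLDL in R150X and 7 in WT, and 0 fell in either. Aldh2 rose by 0.54 in R150X and 0.80 in WT, and Aldh9a1 by 0.75 in R150X and 0.82 in WT. Between untreated genotypes 6 rose and 0 fell, Ptgr1 at 0.74 and Aldh3b1 at 0.50 among them, and in the interaction 3 were called lower, including Ptgr1 at -0.55. With OxLDL none was called between genotypes by edgeR or DESeq2, while 3 were higher at an unadjusted p under 0.05 and 1 was called higher without WT replicate 1 or untreated R150X replicate 1, with the replicate block and under library-size scaling. Wherever 0 genes of 1 of these 8 lists were called in a direction by edgeR, 0 to 3 had an unadjusted p under 0.05 in that direction, and DESeq2 called 0, except for the 1 gene of the reduction list in the interaction.

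**Figure D5:**
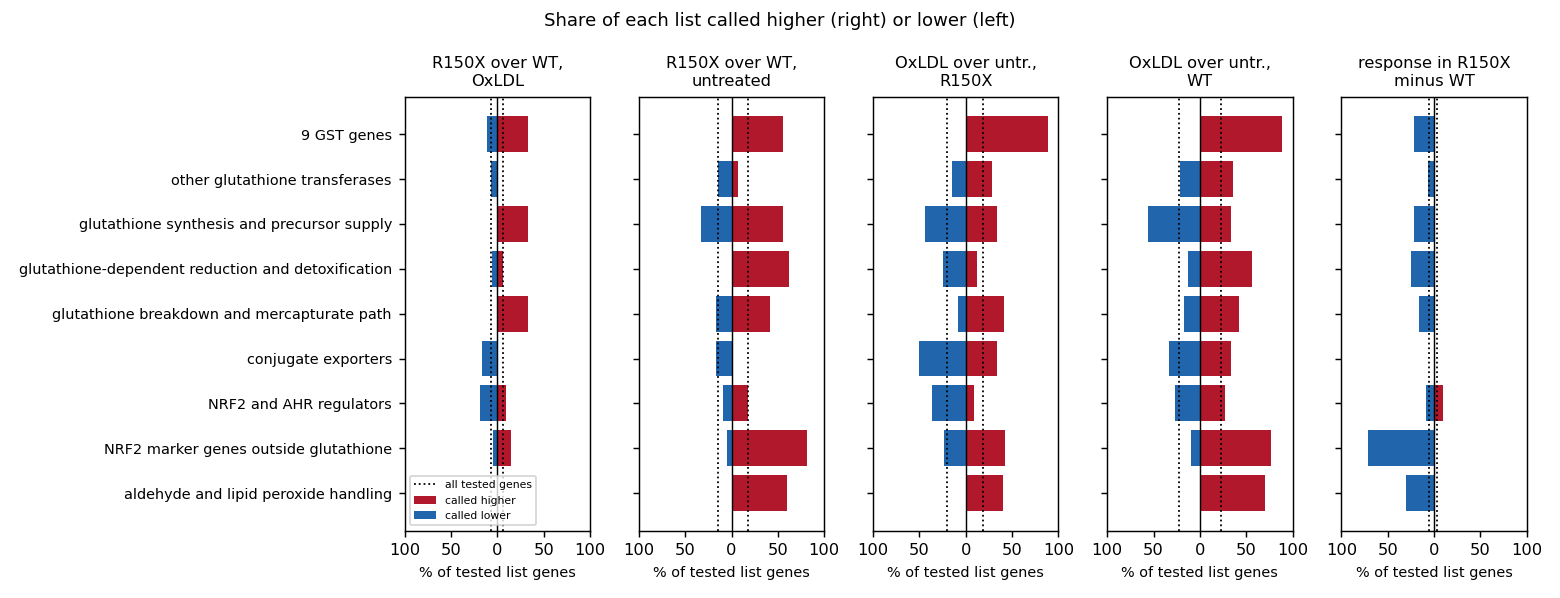
Share of the tested genes of each list called higher (red, right) or lower (blue, left) in the 5 comparisons, with dotted lines at the shares over all genes tested. The 9 transferase genes have 8 called higher in both OxLDL responses, and the NRF2 marker genes have 15 of 21 called lower in the interaction.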

How the data were processed

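The authors deposited unnormalized counts, whole numbers for each Ensembl gene in 12 libraries. The submitters' processing notes list FastQC, HISAT2, featureCounts, DESeq2, mm10 and GRCm38 and no version numbers. Strand setting, annotation release and handling of multi-mapped reads are not given in the sources used here. RNA was isolated with a Qiagen RNeasy kit, per the labels' protocols. Total counts ran from 14838969 to 18222868. Symbols, GRCm38 coordinates and exon lengths came from GENCODE M21, which matched 54409 of 54532 identifiers, and promoters from RefSeq (GRCm38.p6).

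Genes were filtered with filterByExpr (minimum count 10), scaled by trimmed mean of M-values (factors 0.969 to 1.05) and fitted over all 12 libraries with edgeR 4.0.16 (R 4.3.3), 1 coefficient per group. The quasi-likelihood test gave every p except those named as DESeq2, whose own test was used. Adjustment was by Benjamini-Hochberg, over 15338 genes in the main fit and over the genes tested by each alternative. Genes were called at 0.05. The fit was also run on simulated counts with known folds planted in the OxLDL-treated R150X libraries and the same spread for every gene. Such counts cannot speak to spread that differs between genes, to technical replication or to the library that stood apart. Alternatives were DESeq2 size factors, library size alone, DESeq2 1.42.0, no filter, the replicate number as a block, the 6 libraries compared, and each library left out. The members and lists were chosen with earlier results of these data known. All 9 members are described, with up to 2 called genes of smallest adjusted p and the gene of highest mean CPM per list and comparison. A planned comparison of protein sequences was not made, as no protein table was used here.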

Additional observations from a re-analysis of the deposited data

Results flagged for a closer look

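The OxLDL response of Mgst1 differed between genotypes by a log2 difference of -0.55 and that of Gsta3 by -0.96, R150X minus WT, by the interaction test across all genes. Among the list genes named, the same test called negative differences for Akr1a1 (-0.48), Aldh2 (-0.26), Aldh3b1 (-0.45), Alox5ap (-0.68), Anpep (-0.24), Cndp2 (-0.40), Esd (-0.49), Fth1 (-0.27), Gclm (-0.41), Gpx4 (-0.53) and Gsr (-0.70). It also called them for Gss (-0.46), Hmox1 (-0.26), Nfe2l2 (-0.43), Prdx1 (-0.71), Ptgr1 (-0.55), Srxn1 (-0.51) and Taldo1 (-0.59), while the difference of Nfe2l1 was 0.29. Of all genes tested, 5.19% were called lower and 3.13% higher in the interaction. The list genes were named partly for a small adjusted p in this same test, so their calls are not separate evidence. As given above, the Gsta3 call was lost when any 1 of several libraries was left out.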

How the results depend on the processing

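No member reversed a called direction in any alternative. Over all alternatives, 770 values of members kept their side of the threshold, 22 lost a call and 9 gained one. The count of members lower in R150X under OxLDL was 2 with DESeq2, with no filter and with a replicate block, against 1. When each library was left out in turn, the members higher in that comparison numbered 1 to 3 and those lower 0 to 2, and the members called lower in the interaction 1 to 2. Deviations of libraries with the same replicate number correlated at -0.0418 to 0.162, and not every pair passed 0.1, so the numbers were not taken to pair the libraries. Each of the 6 libraries correlated best with its own number in both comparisons of genotypes, 0 of 6 did in the OxLDL comparison of R150X and 3 of 6 in that of WT, a hint from the data and not the design. The replicate block gave 2164 genes called in R150X against WT with OxLDL (1996 without it), and 5355 between untreated genotypes (5056 without it). Depth limits Gsta4 most, at 8 to 49 counts per library.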

Other observations

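Of 21 other transferase genes and relatives listed, 7 did not pass the filter on low counts. Gsta2 had 0 counts in all 12 libraries, Gsta1 had 1 count in untreated WT replicate 2 and 0 elsewhere, and Gstm3, Gstp2, Gstp3, Gstt4 and Gstm6 had at most 6 counts in a library. A count of 0 allows a level of up to 0.158 to 0.209 CPM, depending on the library, for counting error only. Among family members that were tested and lay outside the rule for naming genes, the kappa class gene Gstk1 had log2 fold changes of 0.74 in R150X and 0.63 in WT with OxLDL, and the mu class gene Gstm4 0.85 and 0.64, all called. The mu class gene Gstm2 was called in the other direction, at -0.30 and -0.28. These 3 genes were chosen after their values were seen.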
